A study of Sus scrofa with 24 samples.

Results

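Gene expression was compared between ovaries of Year 1 sows and ovaries of Day 3 piglets of the Chenghua pig, using 6 of the 12 mRNA libraries of a study of 24 libraries. The Year 1 group held 3 sexually mature sows at 1 year of age, and the Day 3 group held 3 animals on postnatal day 3. The study also sampled animals entering puberty and sows late in pregnancy, and its design asked how the ovary differed between these ages. All animals were of one breed, healthy and kept alike, and each library came from another animal, with RNA taken from frozen fragments of the ovary and captured on oligo(dT) beads. No cycle stage is given in the labels used here for the Year 1 sows. All 18753 genes of the deposited table were considered, and 15699 had enough counts to be tested. Levels are given as TPM, the length-corrected share of a transcript in its library, in the order of replicates 1, 2 and 3, and changes as log2 fold changes of scaled counts, Year 1 over Day 3.

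In the newborn pig ovary, germ cells finish meiotic prophase, leave their nests and are enclosed by flat granulosa cells as primordial follicles, next to a surface epithelium and remnants of the mesonephros. The mature ovary grows follicles in which theca cells make androgen and granulosa cells turn it into oestrogen. After ovulation the follicle becomes a corpus luteum, a vascular gland that makes progesterone from cholesterol. RNA from whole tissue mixes all these cells, so fewer cells of a type and less RNA per cell cannot be told apart.

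Nearly equal numbers of genes were higher and lower in Year 1 ovaries. Of the 15699 genes tested, 3767 (24.0%) rose and 3765 (24.0%) fell, together 48.0%, at an adjusted p under 0.05 (edgeR quasi-likelihood test, Benjamini-Hochberg). These shares of 24.0% each way are the base beside which every list count below is to be read. The falls were larger: the median log2 change was 1.29 among the rises and -2.29 among the falls, and 1496 genes fell by at least 8-fold against 436 that rose as much. On the log2 CPM scale of scaled counts, all Year 1 libraries lay below all Day 3 libraries for 99.3% of the genes that fell, beside 30.9% of all genes tested. They lay above all Day 3 libraries for 90.3% of the genes that rose, beside 28.0% of all genes tested. Calls and overlap rest on the same libraries, so high shares among called genes follow in part from the call. Detection was uneven in the same direction. There were 132 genes with at least 10 counts in every Day 3 library and no count in any Year 1 library, and 2 genes with the reverse. The reverse count asks for all Year 1 libraries, which lay further apart than the Day 3 libraries. LOC100525099, with 0, 2847 and 2138 counts in Year 1 and none in Day 3, missed it through replicate 1 alone, as did PCK1 and SERPINB2. At a q under 0.05, the authors' deposited table gives 4149 genes as higher and 4458 as lower in Year 1.

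**Figure D1:**
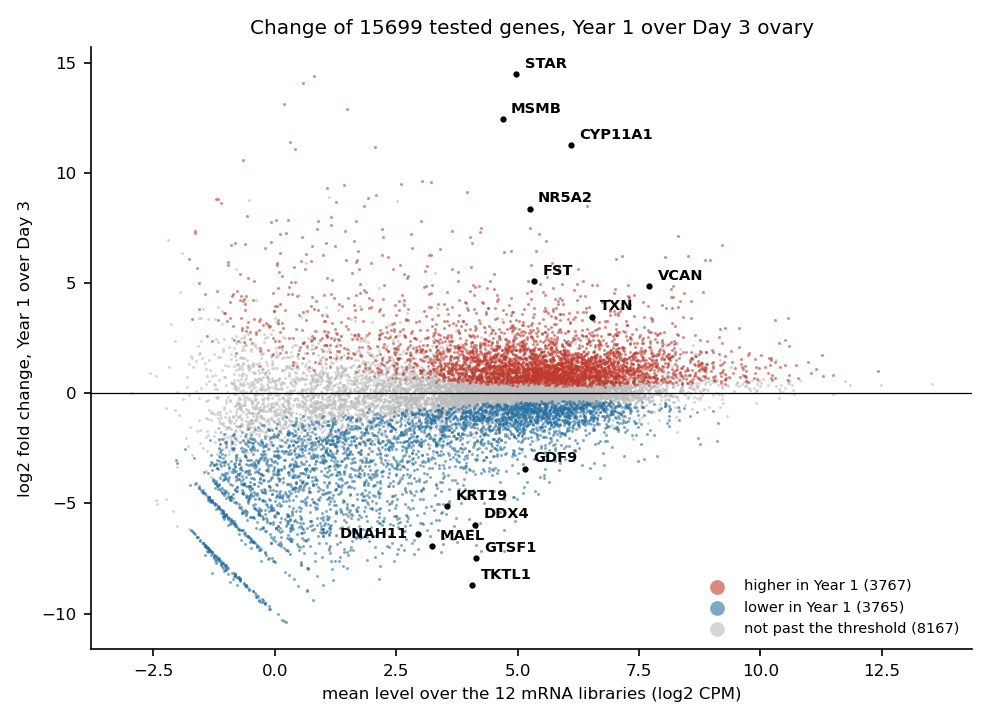
Each point is 1 of the 15699 tested genes. The x axis gives its mean log2 CPM over the 6 Year 1 and Day 3 libraries, although the printed axis label names the 12 mRNA libraries. The y axis gives its log2 fold change, Year 1 over Day 3. Red genes (3767) rose, blue genes (3765) fell and grey genes did not pass. STAR, MSMB and CYP11A1 lie highest among the labelled genes and TKTL1 lowest; the slanted lines of blue points are genes with few or no counts in Year 1, whose fitted size depends on the prior count.

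The direction of small changes depended on how libraries were scaled. TMM factors, which correct for a few genes taking a large part of a library, were 0.94, 0.75 and 0.78 in the Year 1 libraries against 1.25, 1.25 and 1.21 in the Day 3 libraries. Of the genes called higher, 770 (20.4%) had a lower mean TPM in Year 1, while none of those called lower had a higher one. Scaled by library totals alone, 1676 genes rose and 6217 fell, and the median over all genes was -0.56 instead of 0.03. With upper-quartile scaling 2785 rose and 4424 fell, a shift of the median by -0.22. The changes of ERG, NOS3, LAMC1, LDHA, GPX8, LIPE, HSPA8, NCAM1, RPS4X and SDHD shrank by over 1.5 times with total-count scaling. They were then at log2 values of 0.47 (SDHD) to 1.14 (NCAM1) and still passed. NDUFB10, RPL27, RPS28 and RPS2 also shrank by over 1.5 times, to 0.20, 0.28, 0.20 and 0.50. Their calls ended there (edgeR adjusted p = 0.436, 0.349, 0.588 and 0.0617), as did those of CENPF and BST2 (0.0656 and 0.0513).

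Year 1 replicate 1 stood apart from the other Year 1 libraries. It lay 1.63 and 1.34 from replicates 2 and 3 (root mean square log2 difference), which lay 0.76 apart, and replicate 1 lay nearer to each Puberty library, at 0.61 to 0.98, than to either. Library totals were 15453388 to 15776987 counts in Year 1 and 14615474 to 15440361 in Day 3, and 15788 to 16509 genes were detected in Year 1 libraries against 17565 to 17702 in Day 3 libraries. The Day 3 libraries lay 0.44 to 0.53 from each other. Replicate 1 was the nearest to Day 3, at 1.62 to 1.68, against 2.24 to 2.31 for replicate 2 and 2.00 to 2.06 for replicate 3. Without it 4353 of 16064 tested genes rose (27.1%) and 5108 fell (31.8%). Of the 15699 genes tested in both fits, 7099 were called in both, all in the same direction. Another 433 were called only with it and 2143 only without it. The labels give no reason for the difference, and its cause was not tested. Its label was taken as given. Whether that label is right is in doubt and was not tested, a doubt that touches each Year 1 mean and call. In another stage, Pregnancy replicate 3 lay 1.20 from each of its stage mates, which lay 0.54 apart. Ovarian markers were present in all 6 libraries, with the granulosa factor FOXL2 at 8.28 TPM or more and NR5A1, of steroid-making cells, at 32.5 TPM or more.

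Oocyte regulators were far lower in Year 1 ovaries. In this list 17 of 20 tested members fell and 1 rose, with a median log2 change of -5.52 beside 0.03 over all genes tested. DDX4, an RNA helicase that marks germ cells (Sscrofa11.1 chromosome 16, 34879701 to 34983701), was found at 1.24, 1.01 and 1.05 TPM in Year 1 ovaries, against 128, 138 and 90.9 TPM in Day 3 ovaries. Its level was nearly the same in the Year 1 libraries and far below every Day 3 library, with a log2 change of -5.97 ± 0.25 (SE, n = 3 each, adjusted p = 2.07e-06). Each SE given here is the size of the log2 change over the square root of its F statistic. It comes from the fit of all 12 mRNA libraries, so it is not the spread of the 6 libraries compared. FIGLA, the oocyte transcription factor that switches on zona pellucida genes, was at 0.33, 0 and 0.46 TPM in Year 1, against 112, 155 and 99.3 TPM in Day 3 (log2 change -7.95 ± 0.79, adjusted p = 0.000103). ELAVL2, an RNA-binding protein of oocytes, was at 0.98, 0.09 and 0.09 TPM in Year 1 libraries, against 67.3, 85.4 and 62.1 TPM in Day 3 libraries (log2 change -6.86 ± 0.86, adjusted p = 0.000288). ZAR1, which binds maternal mRNAs in the oocyte, was at 4.27, 0 and 1.65 TPM in Year 1 ovaries, against 293, 284 and 454 TPM in Day 3 ovaries (log2 change -6.74 ± 1.07, adjusted p = 0.000882). NOBOX and LHX8, transcription factors of the primordial oocyte, had log2 changes of -7.28 ± 1.00 and -7.22 ± 0.86 (adjusted p = 0.000445 and 0.000228). In each of these genes replicate 2 was the lowest Year 1 library or tied for it, and for DDX4, FIGLA, ELAVL2 and ZAR1 no Year 1 library reached the Day 3 range. DAZL, a germ-cell translation regulator, rested on 1 count over the Year 1 libraries against 814 over the Day 3 libraries (adjusted p = 0.000103). The member that rose was KIT, the receptor of KIT ligand, which oocytes and other cells such as mast cells and theca carry, at 19, 45.4 and 35.8 TPM in Year 1, against 14.1, 14.7 and 19.01 TPM in Day 3 (log2 change 1.90 ± 0.36, adjusted p = 0.00211). Its scaled counts did not overlap between the ages, but in TPM replicate 1 was level with the highest Day 3 library. SOHLH1, another early oocyte factor, did not pass and overlapped, at 0.13, 15.7 and 24.6 TPM in Year 1 libraries, against 29.8, 24.7 and 19.3 TPM in Day 3 libraries. DPPA3, a maternal chromatin factor, did not pass either (log2 change -1.18, adjusted p = 0.389).

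**Figure D2:**
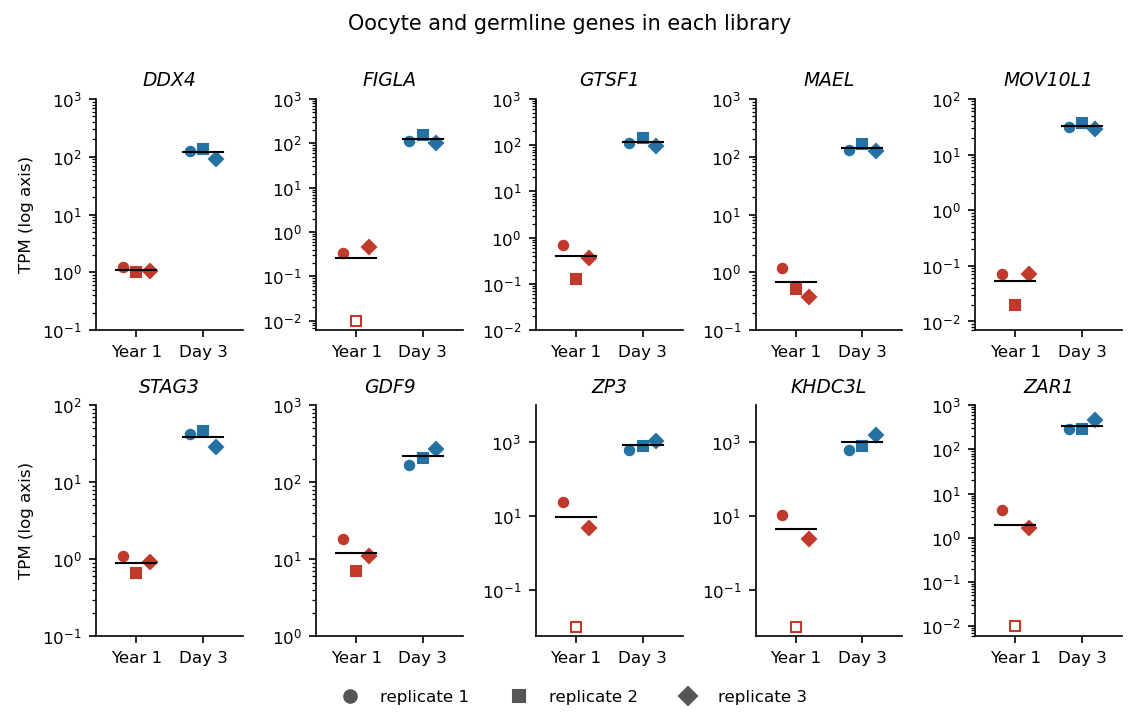
TPM (log axis) of 10 oocyte and germline genes in each Year 1 library (red, left) and each Day 3 library (blue, right), with a symbol for each replicate and a line at the mean of 3; open symbols at 0.01 stand for values of 0. Every Year 1 value lies below every Day 3 value in all 10 genes, and GDF9 shows the smallest gap.

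The piRNA pathway, which silences transposons in germ cells with small RNAs, fell as a group. Of 20 tested members 17 fell and none rose, with a median log2 change of -6.00. MAEL, needed for piRNA production (chromosome 4, 83990266 to 84040465), was at 1.18, 0.51 and 0.38 TPM in Year 1 ovaries, against 130.5, 167 and 127 TPM in Day 3 ovaries (log2 change -6.92 ± 0.37, adjusted p = 1.52e-05). GTSF1, a cofactor of PIWI proteins, was at 0.7, 0.13 and 0.37 TPM in Year 1, against 109, 146 and 96.8 TPM in Day 3 (log2 change -7.47 ± 0.45, adjusted p = 1.59e-05). MOV10L1, the helicase that feeds precursors into the pathway, was at 0.07, 0.02 and 0.07 TPM in Year 1 libraries, against 31.9, 37.4 and 28.4 TPM in Day 3 libraries (log2 change -8.42 ± 0.61, adjusted p = 2.51e-05). All Year 1 values of MAEL, GTSF1 and MOV10L1 lay below all Day 3 values. Among the Tudor-domain scaffold proteins, TDRD1 had a log2 change of -7.22 ± 0.87 and TDRD6 one of -6.91 ± 0.71 (adjusted p = 0.000240 and 0.000124). The members that did not pass were PIWIL4, TDRD7 and MYBL1, at log2 changes of -2.04, -0.34 and -1.14 (adjusted p = 0.0563, 0.222 and 0.0529).

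Meiotic prophase genes were likewise far lower in Year 1, with 20 of 24 tested members down, none up and a median log2 change of -4.56 (-4.12 with MEI4, which had no count in Year 1, set at its bound). STAG3, a cohesin subunit that holds meiotic chromosomes together, was at 1.10, 0.67 and 0.92 TPM in Year 1 ovaries, against 41.8, 46.8 and 29.1 TPM in Day 3 ovaries (log2 change -4.69 ± 0.36, adjusted p = 3.43e-05). SYCP2, of the synaptonemal complex, was at 0.22, 0.05 and 0.14 TPM in Year 1, against 6.18, 7.49 and 5.02 TPM in Day 3 (log2 change -4.90 ± 0.55, adjusted p = 0.000166). Neither STAG3 nor SYCP2 overlapped between the ages. Their fellow meiotic gene SYCP3 fell by 6.97 ± 0.83 in log2 (adjusted p = 0.000233). BRDT, a bromodomain protein of germ cells, had 1 count over the Year 1 libraries against 936 over the Day 3 libraries (adjusted p = 6.46e-05). REC8, MSH5, HSPA2 and MEIOB did not pass. MEIOB, which binds single-stranded DNA during recombination, overlapped at 30.6, 12.3 and 15.2 TPM in Year 1 libraries, against 29.2, 28.1 and 34.6 TPM in Day 3 libraries.

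Genes of the egg coat and of oocyte growth followed. Of 7 tested, 6 fell. GDF9, a growth factor that the oocyte sends to granulosa cells, was at 18.3, 7.15 and 11.07 TPM in Year 1 ovaries, against 169.6, 206 and 273 TPM in Day 3 ovaries (log2 change -3.41 ± 0.36, adjusted p = 0.000135). ZP3, which builds the zona pellucida, was at 24.0, 0 and 4.69 TPM in Year 1, against 607, 781 and 1076 TPM in Day 3 (log2 change -5.79 ± 1.27, adjusted p = 0.00430). KCNH1, a potassium channel held in the list, was at 0.54, 0 and 0.27 TPM in Year 1 libraries, against 11.8, 12.7 and 25.2 TPM in Day 3 libraries (log2 change -5.25 ± 0.97, adjusted p = 0.00186). Replicate 2 was listed at 0 for ZP3 and KCNH1, and the ages did not overlap for GDF9, ZP3 or KCNH1. ZP2, the zona protein that binds sperm, did not pass and overlapped, at 5.70, 0 and 0.88 TPM in Year 1 ovaries, against 1.92, 3.94 and 8.53 TPM in Day 3 ovaries (log2 change -0.51 ± 1.10, adjusted p = 0.720). Of 17 tested maternal-effect genes, whose products support the early embryo, 12 fell and none rose, with 1 rise without Pregnancy replicate 3. KHDC3L, of the subcortical complex of the egg, was at 10.7, 0 and 2.36 TPM in Year 1, against 611, 783 and 1596 TPM in Day 3 (log2 change -7.16 ± 1.33, adjusted p = 0.00191). NLRP7 was at 0.6, 0.03 and 0.15 TPM in Year 1 libraries, against 19.3, 31.9 and 29.3 TPM in Day 3 libraries (log2 change -5.99 ± 0.81, adjusted p = 0.000396) and the homeobox gene OTX2 at 0.64, 0 and 0.04 TPM in Year 1 ovaries, against 22.3, 19.7 and 54.7 TPM in Day 3 ovaries (log2 change -6.54 ± 1.13, adjusted p = 0.00130). The ages did not overlap for KHDC3L, NLRP7 or OTX2. NLRP14 had 129, 154 and 179 counts in the Day 3 libraries and none in Year 1, so it was at least 35.4-fold lower (against a floor of 3 counts per library, adjusted p = 0.000139).

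Progesterone synthesis moved the other way. In the steroid list 15 of 21 tested members rose and none fell, with a median log2 change of 2.88. STAR, which carries cholesterol into mitochondria (chromosome 15, 48377597 to 48385398), was at 50.7, 5294 and 5107 TPM in Year 1, against 0.18, 0.42 and 0.24 TPM in Day 3 (log2 change 14.48 ± 3.29, adjusted p = 0.00510). CYP11A1, which cuts the cholesterol side chain, was at 263, 4244 and 4439 TPM in Year 1 libraries, against 1.57, 2.61 and 2.3 TPM in Day 3 libraries (log2 change 11.28 ± 2.03, adjusted p = 0.00162). HSD3B1, which forms progesterone, was at 355, 11031 and 8606 TPM in Year 1 ovaries, against 131, 122 and 91.2 TPM in Day 3 ovaries (log2 change 6.73 ± 1.82, adjusted p = 0.0120). For these genes replicate 1 lay between the Day 3 libraries and its own stage mates. The electron carriers of the mitochondrial enzymes were less uneven: FDXR, ferredoxin reductase, was at 377, 324 and 312 TPM in Year 1, against 38.7, 50.2 and 47.6 TPM in Day 3 (log2 change 3.66 ± 0.53, adjusted p = 0.000550). FDX1, ferredoxin, was at 549.5, 1606 and 1324 TPM in Year 1 libraries, against 42.9, 43.3 and 44.8 TPM in Day 3 libraries (log2 change 5.58 ± 0.86, adjusted p = 0.000758). NR5A2, the nuclear receptor LRH-1, which drives steroid genes in granulosa and luteal cells (chromosome 10, 22727865 to 22866905), was at 161, 179 and 192 TPM in Year 1 ovaries, against 1.04, 0.67 and 1.06 TPM in Day 3 ovaries (log2 change 8.38 ± 1.38, adjusted p = 0.00105). Its Year 1 libraries were within a narrow range, replicate 1 included. Its relative NR5A1, known as SF-1, was at 119.9, 41.6 and 42.6 TPM in Year 1, against 32.5, 34.9 and 38.1 TPM in Day 3 (log2 change 1.65 ± 0.32, adjusted p = 0.00222).

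**Figure D3:**
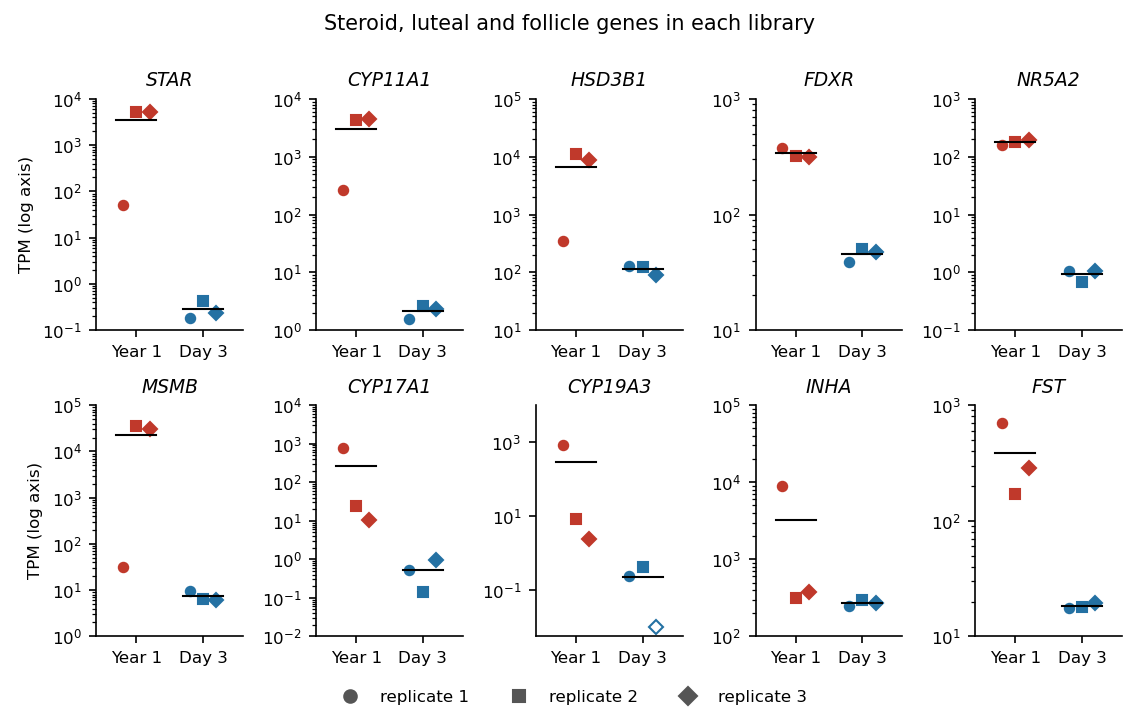
TPM (log axis) of 10 steroid, luteal and follicle genes in each Year 1 library (red, left) and Day 3 library (blue, right), with a symbol for each replicate and a line at the mean of 3; an open symbol at 0.01 stands for 0. Year 1 replicate 1 (circles) is the lowest Year 1 library for STAR, CYP11A1, HSD3B1 and MSMB and the highest for CYP17A1, CYP19A3, INHA and FST, while FDXR and NR5A2 lie together in all 3.

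In the luteal list 13 of 19 tested members rose (68.4%) and 1 fell (5.26%), beside 24.0% of all genes each way. The median log2 change was 4.86, and 8 rose when any 1 of the Day 3 libraries was left out. Without Year 1 replicate 1, 2 fell. This list, with MSMB in it, was chosen with earlier results of these data known, so its count is not independent support. MSMB, a small secreted protein (chromosome 14, 90533092 to 90542309), was at 31.7, 36139 and 30835 TPM in Year 1 libraries, against 9.45, 6.57 and 6.03 TPM in Day 3 libraries (log2 change 12.44 ± 2.05, adjusted p = 0.00106). EDN1, which encodes endothelin-1, was at 3.36, 29.8 and 15.3 TPM in Year 1 ovaries, against 2.98, 3.01 and 2.92 TPM in Day 3 ovaries (log2 change 3.32 ± 0.68, adjusted p = 0.00293). TIMP1, an inhibitor of matrix proteases and among the most abundant Year 1 transcripts, was at 384, 27278 and 17951 TPM in Year 1, against 243, 178 and 179 TPM in Day 3 (log2 change 7.14 ± 1.47, adjusted p = 0.00310). PTGES, a prostaglandin E synthase, was as high in replicate 1 as in the others, at 1047, 985 and 1100.5 TPM in Year 1 libraries, against 69.2, 51.9 and 60.8 TPM in Day 3 libraries (log2 change 4.90 ± 1.05, adjusted p = 0.00371). The member that fell was HPGD, which breaks prostaglandins down, at 1.76, 1.13 and 0.84 TPM in Year 1 ovaries, against 16.2, 25.4 and 15.4 TPM in Day 3 ovaries (log2 change -3.09 ± 0.84, adjusted p = 0.0123). RLN2, the relaxin gene, did not pass at 1.10, 293 and 265 TPM in Year 1, against 1.81, 0.54 and 0 TPM in Day 3 (adjusted p = 0.0884).

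Cholesterol genes were also higher. Of 24 tested cholesterol synthesis members 18 rose and none fell (median log2 change 2.93), or 10 without Day 3 replicate 2 or without Day 3 replicate 3. The list's median log2 CPM minus the Day 3 mean was 0.88 in replicate 1, 3.29 in replicate 2 and 3.50 in replicate 3. SREBF2, the transcription factor of the pathway, was nevertheless even across Year 1 at 88.7, 102 and 97.8 TPM in Year 1 libraries, against 43.5, 40.8 and 44.1 TPM in Day 3 libraries (log2 change 1.96 ± 0.30, adjusted p = 0.000736). ACAT2, an early enzyme, was at 48.1, 234 and 295 TPM in Year 1 ovaries, against 28.2, 22.1 and 20.1 TPM in Day 3 ovaries (log2 change 3.90 ± 0.74, adjusted p = 0.00212), and DHCR7, the last step of one branch, was at 41.4, 227 and 249.9 TPM in Year 1, against 28.4, 36.7 and 30.9 TPM in Day 3 (log2 change 3.29 ± 0.70, adjusted p = 0.00373). In the list of uptake, storage and transport 14 of 18 rose and none fell. There were 8 rises without Day 3 replicate 2 or without Day 3 replicate 3, and 1 fall without Puberty replicate 1 or without Puberty replicate 3. APOA1, the apolipoprotein of high-density lipoprotein, was at 596, 912 and 576 TPM in Year 1 libraries, against 193, 216 and 229 TPM in Day 3 libraries (log2 change 2.52 ± 0.45, adjusted p = 0.00161). NPC2, which moves cholesterol out of lysosomes, was at 148, 1834 and 1499 TPM in Year 1 ovaries, against 145, 136 and 123 TPM in Day 3 ovaries (log2 change 3.98 ± 0.80, adjusted p = 0.00266). All Year 1 values of SREBF2, ACAT2, DHCR7, APOA1 and NPC2 lay above all Day 3 values, with replicate 1 the lowest Year 1 library for all of them but APOA1. LIPE, hormone-sensitive lipase, rose by 1.38 ± 0.30 in log2 (adjusted p = 0.00390), although its replicate 1 level of 8.73 TPM lay at the low end of the Day 3 range of 8.69 to 9.84 TPM.

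Granulosa genes split by library. Of 21 tested, 11 rose (52.4%) and 2 fell (9.52%), beside 24.0% of all genes each way. Without Year 1 replicate 1, 4 rose and 8 fell, beside 27.1% and 31.8% of all genes in that fit. Between 6 and 7 rose without any 1 of the Day 3 libraries, and 4 fell without Pregnancy replicate 3. FST, which encodes the activin inhibitor follistatin, was high in every Year 1 library at 701, 169.6 and 287 TPM in Year 1, against 17.8, 18.0 and 19.5 TPM in Day 3 (log2 change 5.10 ± 0.55, adjusted p = 0.000147). INHA, the inhibin alpha subunit, was at 9079, 311 and 382 TPM in Year 1 libraries, against 251, 294 and 269 TPM in Day 3 libraries (log2 change 4.18 ± 1.18, adjusted p = 0.0145). That call ended without Year 1 replicate 1 (log2 change 1.23, adjusted p = 0.0945) and without Day 3 replicates 1, 2 or 3 (0.0527, 0.05045 and 0.0513), within a range of 0.00800 to 0.0945 over its alternatives. CYP19A3, a pig aromatase copy that makes oestrogen and whose reads are uncertain between near-identical copies, was at 858, 8.64 and 2.38 TPM in Year 1 ovaries, against 0.25, 0.43 and 0 TPM in Day 3 ovaries (log2 change 11.17 ± 2.90, adjusted p = 0.00986). Its log2 change was 5.67 without Year 1 replicate 1 (adjusted p = 0.0276), and the call ended with limma voom and quality weights (5.29, adjusted p = 0.187), in a range of 0.00636 to 0.187 over its alternatives. AMH, which marks small growing follicles, was at 26.5, 0.37 and 1.72 TPM in Year 1, against 30.1, 34.4 and 61.6 TPM in Day 3 and did not pass (adjusted p = 0.246). Its TPM did not overlap, but on the scaled counts replicate 1 reached the Day 3 range. FOXL2, a factor of granulosa identity, was at 113, 8.28 and 10.8 TPM in Year 1 libraries, against 64.5, 82.9 and 85.9 TPM in Day 3 libraries (adjusted p = 0.853). FSHR, the receptor for follicle-stimulating hormone, was at 20.8, 0.07 and 0.66 TPM in Year 1 ovaries, against 5.86, 7.77 and 8.61 TPM in Day 3 ovaries (adjusted p = 0.725). Without replicate 1 the log2 changes of AMH, FOXL2 and FSHR were -4.45, -2.15 and -3.45 (adjusted p = 0.00209, 0.00209 and 0.00366). Over all alternatives the adjusted p was 0.000128 to 0.575 for AMH, 0.000864 to 1.00 for FOXL2 and 0.000311 to 1.00 for FSHR. WT1, a zinc-finger factor of early granulosa and surface cells, fell whichever library was left out, at 27.7, 10.9 and 16.6 TPM in Year 1, against 148, 157 and 147 TPM in Day 3 (log2 change -2.27 ± 0.38, adjusted p = 0.00112). NR0B1, the orphan receptor DAX1, fell too, at 1.86, 0.14 and 0.21 TPM in Year 1 libraries, against 35.0, 30.0 and 42.8 TPM in Day 3 libraries (log2 change -4.93 ± 0.83, adjusted p = 0.00118).

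Among 14 tested theca and androgen genes 8 rose (57.1%) and 1 fell (7.14%), beside 24.0% of all genes each way. The count of rises was 5 without any 1 of the Day 3 libraries, and 3 fell without Year 1 replicate 1. None fell without Day 3 replicate 1 or 3, Year 1 replicate 2 or 3, or Pregnancy replicate 1. CYP17A1, the androgen-forming enzyme, was at 764, 24.8 and 10.4 TPM in Year 1 ovaries, against 0.54, 0.14 and 0.95 TPM in Day 3 ovaries (log2 change 9.49 ± 1.87, adjusted p = 0.00250), highest in replicate 1, without which the log2 change was 5.89. CYB5A, cytochrome b5, which assists CYP17A1, was highest in the other 2, at 274, 3337 and 2476 TPM in Year 1, against 149, 161 and 158 TPM in Day 3 (log2 change 4.58 ± 0.90, adjusted p = 0.00251). LHCGR, the luteinizing hormone receptor, was at 56.9, 12.3 and 10.9 TPM in Year 1 libraries, against 2.52, 4.07 and 1.19 TPM in Day 3 libraries (log2 change 4.09 ± 0.90, adjusted p = 0.00417).

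Hormone receptors showed no common direction: 2 of 17 tested rose (11.8%) and 5 fell (29.4%), beside 24.0% of all genes each way. Their median log2 change of 0.23 became -0.42 with total-count scaling and turned negative with upper-quartile scaling too. ESR2, oestrogen receptor beta, was nearly lost at 0.1, 0.04 and 0.11 TPM in Year 1 ovaries, against 3.84, 6.47 and 6.01 TPM in Day 3 ovaries (log2 change -5.27 ± 0.77, adjusted p = 0.000577). NR3C2, the mineralocorticoid receptor, was at 1.92, 0.35 and 0.87 TPM in Year 1, against 7.06, 9.53 and 9.04 TPM in Day 3 (log2 change -2.27 ± 0.41, adjusted p = 0.00166). ESR1, oestrogen receptor alpha, overlapped at 15.4, 1.68 and 2.25 TPM in Year 1 libraries, against 19.9, 11.7 and 18.6 TPM in Day 3 libraries (adjusted p = 0.359) and fell by 2.19 without Year 1 replicate 1 (adjusted p = 0.000587, in a range of 0.000448 to 0.914 over its alternatives). PGR, the progesterone receptor, was at 2.18, 4.74 and 9.87 TPM in Year 1 ovaries, against 5.54, 5.59 and 4.91 TPM in Day 3 ovaries and did not pass (adjusted p = 0.136). Without that library it rose by 1.32 (adjusted p = 0.00438, in a range of 0.000384 to 0.720 over its alternatives). The number of falls was 2 to 3 without any 1 of the Day 3 libraries, Year 1 replicate 2 or Year 1 replicate 3.

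Ligands and targets of WNT signalling, which supports female gonad development, were often lower in Year 1: 13 of 25 tested WNT, R-spondin and LGR members fell in Year 1 and 3 rose. Among ligands, WNT4 was at 1.89, 0.53 and 1.22 TPM in Year 1, against 17.9, 21.9 and 23.5 TPM in Day 3 (log2 change -3.39 ± 0.73, adjusted p = 0.00373). RSPO1 and RSPO2, secreted amplifiers of WNT signals, fell by 5.14 ± 1.04 and 5.78 ± 0.82 in log2 (adjusted p = 0.00280 and 0.000518). Of the receptors, LGR6 was at 0.12, 0 and 0 TPM in Year 1 libraries, against 11.5, 11.3 and 8.38 TPM in Day 3 libraries (adjusted p = 0.000361), and LGR5 had 1 count over the Year 1 libraries against 240 over the Day 3 libraries (adjusted p = 0.000345). The transcription factor LEF1 was at 5.27, 8.19 and 7.15 TPM in Year 1 ovaries, against 41.5, 35.6 and 33.1 TPM in Day 3 ovaries (log2 change -1.85 ± 0.23, adjusted p = 0.000288), and the feedback target AXIN2 at 6.70, 2.89 and 4.60 TPM in Year 1, against 32.0, 40.7 and 34.5 TPM in Day 3 (log2 change -2.18 ± 0.44, adjusted p = 0.00286). None of WNT4, LGR6, LEF1 and AXIN2 overlapped between the ages. The rises were FZD1, a receptor whose call ended in 6 of the fits that left out a library (adjusted p of up to 0.113), and DKK2 and DKK3 of the Dickkopf family. DKK3 was at 116, 699 and 563 TPM in Year 1 libraries, against 70.7, 92.2 and 109 TPM in Day 3 libraries (log2 change 3.21 ± 0.83, adjusted p = 0.00940).

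Most surface epithelium, cilia and duct genes were lower in Year 1. Of 14 tested surface epithelium and mesothelium members 12 fell and none rose, with 1 rise without Year 1 replicate 1. KRT19, a keratin of simple epithelia, was at 3.40, 0.46 and 1.92 TPM in Year 1 ovaries, against 117, 127 and 82.7 TPM in Day 3 ovaries (log2 change -5.11 ± 0.74, adjusted p = 0.000568). CDH1, the epithelial cadherin, was at 1.82, 0.15 and 0.65 TPM in Year 1, against 49.5, 44.9 and 38.2 TPM in Day 3 (log2 change -4.99 ± 0.62, adjusted p = 0.000271). EPCAM and UPK1B did not pass. In the motile cilia list 22 of 23 fell and none rose, with a median log2 change of -4.01. DNAH11, a dynein heavy chain, was at 0.08, 0.03 and 0.21 TPM in Year 1 libraries, against 10.2, 14.9 and 11.0 TPM in Day 3 libraries (log2 change -6.40 ± 0.49, adjusted p = 3.42e-05). The ciliary genes DNAH7 and CFAP44 fell by 5.36 ± 0.48 and 4.07 ± 0.43 in log2 (adjusted p = 6.42e-05 and 0.000135). FOXJ1, the master factor of motile cilia, was uneven among Day 3 libraries at 0.19, 0.04 and 0 TPM in Year 1 ovaries, against 9.97, 26.9 and 2.20 TPM in Day 3 ovaries (log2 change -6.64 ± 1.19, adjusted p = 0.00156). In the oviduct and mesonephric duct list 6 of 9 fell and none rose. LYPD1 was at 0.33, 0 and 0.04 TPM in Year 1, against 20.5, 22.2 and 29.6 TPM in Day 3 (log2 change -7.45 ± 0.91, adjusted p = 0.000258). PAX2, a duct factor, had 38, 28 and 15 counts in Day 3 libraries and none in Year 1, at least 6.13-fold lower (adjusted p = 0.00175). The ages did not overlap for KRT19, CDH1, DNAH11, FOXJ1 or LYPD1. How much oviduct, rete or surface tissue each fragment held was not measured.

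**Figure D4:**
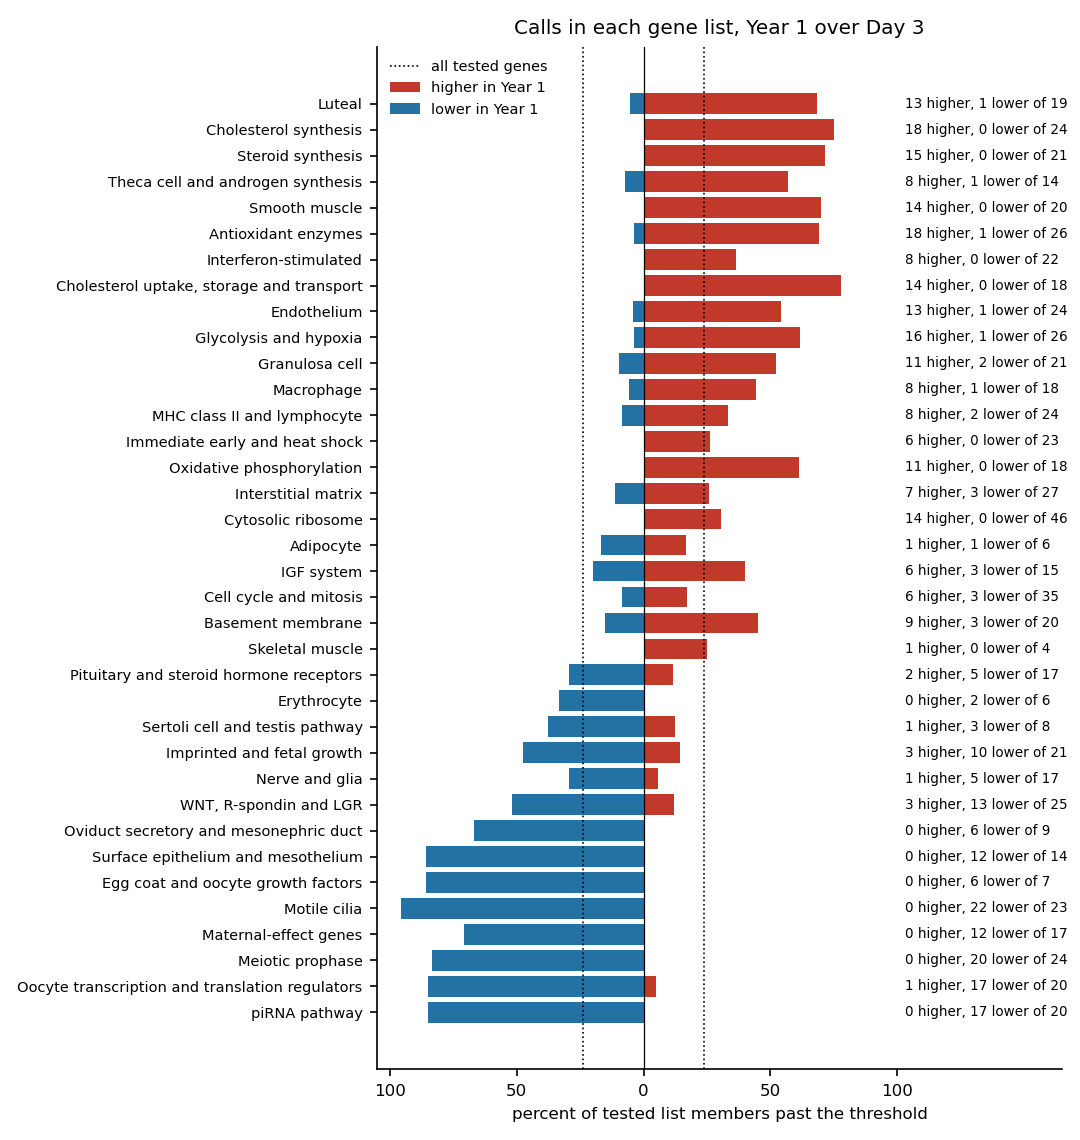
For each of the 36 gene lists, the percent of tested members that rose (red, right) or fell (blue, left) in Year 1 over Day 3, sorted by median log2 change, with the counts printed beside the bars; dotted lines mark the 24.0% of all tested genes called in each direction. Germline, cilia and surface epithelium lists are at the bottom with up to 22 of 23 members lower, and luteal, cholesterol synthesis and steroid lists at the top, with 13 of 19, 18 of 24 and 15 of 21 members higher.

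Fetal growth genes were lower in 10 of 21 tested imprinted and fetal members (47.6%) and higher in 3 (14.3%), beside 24.0% of all genes each way. The IGF2 mRNA-binding proteins were nearly silent in Year 1. IGF2BP3 was at 0.43, 0.34 and 0.56 TPM in Year 1 libraries, against 26.4, 36.9 and 36.0 TPM in Day 3 libraries (log2 change -5.48 ± 0.57, adjusted p = 0.000127), IGF2BP2 at 0.41, 0.5 and 0.59 TPM in Year 1 ovaries, against 29.4, 30.7 and 27.3 TPM in Day 3 ovaries (log2 change -5.12 ± 0.57, adjusted p = 0.000164), and IGF2BP1 had 120, 78 and 66 counts in Day 3 libraries and none in Year 1 (at least 20.0-fold lower, adjusted p = 0.000784). ZIM2, an imprinted zinc-finger gene, fell too, at 0.07, 0 and 0.02 TPM in Year 1, against 3.14, 3.03 and 3.20 TPM in Day 3 (log2 change -5.92 ± 0.91, adjusted p = 0.000751). IGF2, the fetal growth factor, was at 28.8, 36.2 and 35.6 TPM in Year 1 libraries, against 184, 149 and 249 TPM in Day 3 libraries (log2 change -1.55 ± 0.36, adjusted p = 0.00607). PHLDA2, an imprinted growth restrictor of placenta, rose at 9.29, 51.6 and 74.1 TPM in Year 1 ovaries, against 3.59, 2.66 and 3.79 TPM in Day 3 ovaries (log2 change 4.59 ± 0.98, adjusted p = 0.00367). Of 15 tested IGF system genes 6 rose (40.0%) and 3 fell (20.0%), beside 24.0% of all genes in each direction. Their median log2 change of 0.52 was -0.01 with total-count scaling. There were 3 rises without Day 3 replicate 2, and 5 falls without Year 1 replicate 1. IGFBP5, an IGF-binding protein, was at 15.1, 3.51 and 13.0 TPM in Year 1, against 474, 348 and 574 TPM in Day 3 (log2 change -4.72 ± 0.90, adjusted p = 0.00217). PAPPA2, a protease of IGF-binding proteins, was at 0.32, 0 and 0.06 TPM in Year 1 libraries, against 18.3, 21.1 and 21.9 TPM in Day 3 libraries (log2 change -6.66 ± 1.02, adjusted p = 0.000745). STC1, an inhibitor of such proteases, was at 105, 10.4 and 8.35 TPM in Year 1 ovaries, against 4.89, 1.65 and 2.22 TPM in Day 3 ovaries (log2 change 4.45 ± 0.91, adjusted p = 0.00305), a change of 2.55 without Year 1 replicate 1. The ages did not overlap for any of the genes given here in TPM, and replicate 1 was the lowest Year 1 library for PHLDA2 and the highest for STC1.

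Mitotic genes differed between the Year 1 libraries. Of 35 tested, 6 rose (17.1%) and 3 fell (8.57%), below the 24.0% of all genes in each direction. The list's median log2 CPM minus the Day 3 mean was 1.38 in replicate 1, -0.62 in replicate 2 and 0.05 in replicate 3, and its median log2 change of 0.50 was -0.25 without replicate 1. The 6 rises were 3 or fewer without Day 3 replicate 1, Day 3 replicate 2 or Year 1 replicate 1. There were 7 falls without Year 1 replicate 1, and the 3 falls were 1 without Day 3 replicate 2, Day 3 replicate 3, Year 1 replicate 2 or Year 1 replicate 3. AURKA, a spindle kinase that oocytes store, fell at 41.7, 8.63 and 14.7 TPM in Year 1, against 224, 279 and 453 TPM in Day 3 (log2 change -3.15 ± 0.52, adjusted p = 0.00102). RRM2, which makes DNA precursors, rose at 41.1, 12.1 and 24.4 TPM in Year 1 libraries, against 10.1, 3.81 and 9.61 TPM in Day 3 libraries (log2 change 2.45 ± 0.50, adjusted p = 0.00291). MKI67, a mark of dividing cells, was highest in replicate 1 at 49.5, 6.71 and 12.1 TPM in Year 1 ovaries, against 7.88, 2.97 and 7.94 TPM in Day 3 ovaries (log2 change 2.49 ± 0.71, adjusted p = 0.0157). The call on MKI67 ended without Day 3 replicate 2 (adjusted p = 0.0600) and without Year 1 replicate 1 (log2 change 1.47, adjusted p = 0.0540), in a range of 0.00126 to 0.0694 over its alternatives, and Year 1 replicate 2 lay within the Day 3 range in TPM.

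Many smooth muscle and basement membrane genes rose. In the smooth muscle list 14 of 20 tested rose and none fell (median log2 change 2.02), with 1 fall without Year 1 replicate 1. TPM2, a tropomyosin of contractile cells, was at 801, 639.8 and 892 TPM in Year 1, against 161, 129 and 133 TPM in Day 3 (log2 change 2.99 ± 0.23, adjusted p = 3.51e-05). MCAM, an adhesion molecule of vessel wall cells, was at 21.6, 28.5 and 22.6 TPM in Year 1 libraries, against 4.23, 4.06 and 5.02 TPM in Day 3 libraries (log2 change 3.25 ± 0.35, adjusted p = 0.000135), and the myosin light chain MYL9 at 395, 179.8 and 232 TPM in Year 1 ovaries, against 92.6, 65.4 and 57.0 TPM in Day 3 ovaries (log2 change 2.65 ± 0.33, adjusted p = 0.000290). ACTA2, smooth muscle actin, was uneven but above Day 3 throughout at 2565, 546 and 1174 TPM in Year 1, against 281, 185 and 170.4 TPM in Day 3 (log2 change 3.47 ± 0.52, adjusted p = 0.000664). In the basement membrane list 9 of 20 rose (45.0%) and 3 fell (15.0%), beside 24.0% of all genes each way. The median of 0.41 was -0.22 with total-count scaling, and the falls were 6 without Year 1 replicate 1 and 1 without Year 1 replicate 3. COL4A1, a collagen IV chain found in most basement membranes (chromosome 11, 76858332 to 76997409), was at 565, 784 and 801 TPM in Year 1 libraries, against 127, 109 and 143 TPM in Day 3 libraries (log2 change 3.32 ± 0.30, adjusted p = 6.65e-05). Its partner COL4A2 was at 589, 649 and 672 TPM in Year 1 ovaries, against 206, 172 and 246 TPM in Day 3 ovaries (log2 change 2.40 ± 0.27, adjusted p = 0.000169). COL4A3, a chain of more restricted membranes, fell instead at 2.61, 0.13 and 0.23 TPM in Year 1, against 7.68, 15.1 and 11.2 TPM in Day 3 (log2 change -2.91 ± 0.81, adjusted p = 0.0140). LAMC1, a laminin chain, rose by 1.43 ± 0.16 in log2 (adjusted p = 0.000166). Of 27 tested interstitial matrix genes 7 rose, a share near that of all genes, and 3 fell, a share below it. VCAN, the proteoglycan versican of the follicle wall, stood out at 179, 171 and 101 TPM in Year 1 libraries, against 8.57, 7.09 and 10.9 TPM in Day 3 libraries (log2 change 4.86 ± 0.45, adjusted p = 7.11e-05). LOX, which cross-links collagen, was at 17.3, 14.8 and 20.3 TPM in Year 1 ovaries, against 6.78, 8.58 and 5.79 TPM in Day 3 ovaries (log2 change 2.09 ± 0.32, adjusted p = 0.000736). FBN3, a fibrillin of fetal tissue, was at 0.07, 0 and 0.02 TPM in Year 1, against 10.8, 6.25 and 11.2 TPM in Day 3 (log2 change -7.57 ± 1.01, adjusted p = 0.000378). COL1A1, the main fibrillar collagen, was at 2749, 447 and 1424 TPM in Year 1 libraries, against 2312, 1063 and 2149 TPM in Day 3 libraries (log2 change 0.40 ± 0.54, adjusted p = 0.558), which overlapped between the ages, and its sign turned without Year 1 replicate 1 and with total-count scaling.

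Endothelial genes rose in 13 of 24 tested members (54.2%) and 1 fell (4.17%), beside 24.0% of all genes each way. None fell without Day 3 replicate 1, Day 3 replicate 2, Year 1 replicate 1 or Year 1 replicate 3, and 2 fell without Pregnancy replicate 1. ERG, a transcription factor of endothelium, was at 15.1, 17.3 and 15.7 TPM in Year 1 ovaries, against 8.25, 10.7 and 9.82 TPM in Day 3 ovaries (log2 change 1.54 ± 0.21, adjusted p = 0.000395). PECAM1, an adhesion protein of endothelium, was at 61.4, 85.9 and 102 TPM in Year 1, against 37.4, 31.3 and 34.0 TPM in Day 3 (log2 change 2.09 ± 0.31, adjusted p = 0.000634). NOS3, which makes nitric oxide, was at 11.9, 15.7 and 19.9 TPM in Year 1 libraries, against 9.04, 9.00 and 9.87 TPM in Day 3 libraries (log2 change 1.57 ± 0.27, adjusted p = 0.00116). VWF, which encodes von Willebrand factor, was at 28.8, 58.6 and 70.3 TPM in Year 1 ovaries, against 13.7, 12.6 and 14.0 TPM in Day 3 ovaries (log2 change 2.80 ± 0.48, adjusted p = 0.00124). For ERG, PECAM1, NOS3 and VWF every Year 1 library was above every Day 3 library, and replicate 1 was the lowest of Year 1. The member called lower was EMCN, endomucin, at 12.03, 18.7 and 11.5 TPM in Year 1, against 46.2, 50.6 and 44.0 TPM in Day 3 (log2 change -0.93 ± 0.32, adjusted p = 0.0327). The call ended in 5 of the fits that left out a library, with an adjusted p of up to 0.108.

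The medians of the immune lists were highest in Year 1 replicate 2. Of 18 tested macrophage genes 8 rose (44.4%) and 1 fell (5.56%), beside 24.0% of all genes each way. The rises were 5 without Day 3 replicate 2, Day 3 replicate 3 or Year 1 replicate 2. There were 2 falls without Year 1 replicate 2 or without Pregnancy replicate 3. CD14, a receptor for bacterial lipopolysaccharide, was at 8.51, 40.2 and 31.5 TPM in Year 1 libraries, against 5.83, 5.33 and 5.17 TPM in Day 3 libraries (log2 change 3.15 ± 0.60, adjusted p = 0.00208). GPNMB, of lipid-laden macrophages, was at 19.5, 464 and 119 TPM in Year 1 ovaries, against 20.5, 7.55 and 5.05 TPM in Day 3 ovaries (log2 change 4.98 ± 1.16, adjusted p = 0.00572), with replicate 1 inside the Day 3 range in TPM. ITGAM, an integrin of myeloid cells, fell at 2.19, 1.29 and 1.00 TPM in Year 1, against 15.2, 13.4 and 14.8 TPM in Day 3 (log2 change -2.54 ± 0.44, adjusted p = 0.00133). Of 24 tested MHC class II and lymphocyte genes 8 rose (33.3%, beside 24.0% of all genes) and 2 fell (8.33%). There were 14 rises without Year 1 replicate 1 and 4 to 5 without Year 1 replicate 2 or any 1 of the Day 3 libraries. Among the falls was CD79B, a B-cell gene, at a log2 change of -2.36 ± 0.45 (adjusted p = 0.00227). LCK, a T-cell kinase, was at 1.03, 4.13 and 0.88 TPM in Year 1 libraries, against 0.65, 0.51 and 0.35 TPM in Day 3 libraries (log2 change 2.91 ± 0.70, adjusted p = 0.00668), a change of 1.69 without Year 1 replicate 2. Interferon-stimulated genes were called higher in 8 of 22 (36.4%, beside 24.0% of all genes), and this depended on single libraries. The count was 1, with 2 falls, without Year 1 replicate 2, then 17 without Year 1 replicate 1, 1 to 2 without any 1 of the Day 3 libraries, and 5 without Puberty replicate 1, Pregnancy replicate 1 or Pregnancy replicate 2. MX2, an antiviral GTPase, was at 1.15, 20.4 and 2.73 TPM in Year 1 ovaries, against 0.89, 0.76 and 1.02 TPM in Day 3 ovaries (log2 change 4.07 ± 1.00, adjusted p = 0.00729), a change of 1.89 without Year 1 replicate 2.

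Energy and antioxidant genes were mostly higher. Of 26 tested glycolysis and hypoxia genes 16 rose and 1 fell, or 2 fell without Year 1 replicate 1. ALDOA, aldolase, was at 1083, 1659 and 1760.2 TPM in Year 1, against 342, 294 and 377 TPM in Day 3 (log2 change 2.95 ± 0.37, adjusted p = 0.000271), and LDHA, lactate dehydrogenase, at 202, 173 and 234 TPM in Year 1 libraries, against 109, 115 and 132 TPM in Day 3 libraries (log2 change 1.55 ± 0.18, adjusted p = 0.000225). CA9, a carbonic anhydrase known as a hypoxia target, fell at 3.56, 3.00 and 2.61 TPM in Year 1 ovaries, against 17.8, 20.2 and 19.6 TPM in Day 3 ovaries (log2 change -1.91 ± 0.26, adjusted p = 0.000390). In the antioxidant list 18 of 26 rose and 1 fell, with 10 rises without Day 3 replicate 3. TXN, thioredoxin (chromosome 1, 251264180 to 251278000), was at 2571, 1832 and 1984 TPM in Year 1, against 318, 335 and 306 TPM in Day 3 (log2 change 3.48 ± 0.22, adjusted p = 1.89e-05), with a small spread at each age. GSTA1, a glutathione transferase of steroid-making cells, was at 1187, 5534 and 4506 TPM in Year 1 libraries, against 139, 53.7 and 83.6 TPM in Day 3 libraries (log2 change 6.21 ± 1.05, adjusted p = 0.00117). GPX8 rose by 1.37 ± 0.23 in log2 (adjusted p = 0.00118). The member that fell was GSTM3, another glutathione transferase, at 24.1, 1.81 and 4.97 TPM in Year 1 ovaries, against 264, 385 and 391 TPM in Day 3 ovaries (log2 change -4.39 ± 0.79, adjusted p = 0.00160). The ages did not overlap for ALDOA, LDHA, CA9, TXN, GSTA1 or GSTM3.

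Respiratory chain and ribosome genes moved with the scaling. Of 32 listed oxidative phosphorylation genes 18 had a value and were tested. UQCRC1, CYC1, ATP5F1A and ATP5F1B were among those without one. Of the 18 tested, 11 rose and none fell, with 7 and 6 rises without Day 3 replicates 2 and 3, but 4 rose with total-count scaling. SDHD, of complex II, was at 74.6, 95.9 and 90.0 TPM in Year 1, against 77.6, 66.9 and 70.4 TPM in Day 3 (log2 change 1.09 ± 0.22, adjusted p = 0.00293), and its TPM overlapped between the ages. Ribosomal protein genes share reads with processed pseudogenes and are therefore uncertain. Of 46 tested, 14 rose (30.4%, beside 24.0% of all genes) and none fell. With total-count scaling 1 rose, and the median was then -0.001 against 0.58. The count was 6 to 8 without any 1 of the Day 3 libraries or Year 1 replicate 3 and 35 without Pregnancy replicate 3. RPS4X was at 1596, 1879 and 2070.2 TPM in Year 1 libraries, against 1401, 1409 and 1374 TPM in Day 3 libraries (log2 change 1.21 ± 0.21, adjusted p = 0.00151). EEF1A1, an elongation factor, was at 10848, 9924 and 10255 TPM in Year 1 ovaries, against 13494, 13291 and 13321 TPM in Day 3 ovaries. In TPM every Year 1 library was below every Day 3 library, while its scaled change was 0.41 ± 0.30 (adjusted p = 0.271) and -0.19 with total-count scaling. It passed without Pregnancy replicate 3 (adjusted p = 0.0237, in a range of 0.00149 to 1.00 over its alternatives).

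Markers of further tissues moved less evenly, and their counts stand beside the 24.0% of all genes called in each direction. Some immediate early and heat shock genes respond to handling of tissue. Of 23 tested, 6 rose (26.1%, near the share of all genes) and none fell. There were 2 to 3 rises without Day 3 replicate 2, Day 3 replicate 3 or Year 1 replicate 2, and 1 fall without Puberty replicate 3. HSPA8, a chaperone, was at 1683, 1060.3 and 868 TPM in Year 1, against 893, 615 and 743 TPM in Day 3 (log2 change 1.43 ± 0.27, adjusted p = 0.00192), overlapping in TPM. In the erythrocyte list 2 of 6 fell, or 1 without Day 3 replicates 1 or 2 or Year 1 replicates 2 or 3, and the summed TPM was 186, 974 and 255 in Year 1 against 895, 1156 and 1040.0 in Day 3. In the nerve and glia list 5 of 17 fell (29.4%) and 1 rose (5.88%). Without Year 1 replicate 1 those counts were 8 and 3, and 2 rose without Pregnancy replicate 3. NCAM1, a neural adhesion molecule that other cells share, rose at 25.1, 29.0 and 26.1 TPM in Year 1 libraries, against 15.6, 11.0 and 14.9 TPM in Day 3 libraries (log2 change 1.75 ± 0.30, adjusted p = 0.00127). Among adipocyte markers 1 of 6 rose and 1 fell, and among skeletal muscle markers 1 of 4 rose. The adipocyte rise was PCK1, and there were 0 rises without any 1 of the Day 3 libraries, Year 1 replicate 2 or Year 1 replicate 3, 2 without Year 1 replicate 1, Pregnancy replicate 1 or Pregnancy replicate 3, and 2 falls without Puberty replicate 1. The skeletal muscle rise was lost without Day 3 replicate 1, and 1 fell without Year 1 replicate 1. Of 8 tested Sertoli cell and testis genes 1 rose and 3 fell, among them DMRT1, which germ cells also express, with 2 counts over the Year 1 libraries against 455 over the Day 3 libraries (adjusted p = 0.000139). The rise was lost without any 1 of the Day 3 libraries, Year 1 replicate 2 or Year 1 replicate 3, and the falls were 1 without Year 1 replicate 3.

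**Figure D5:**
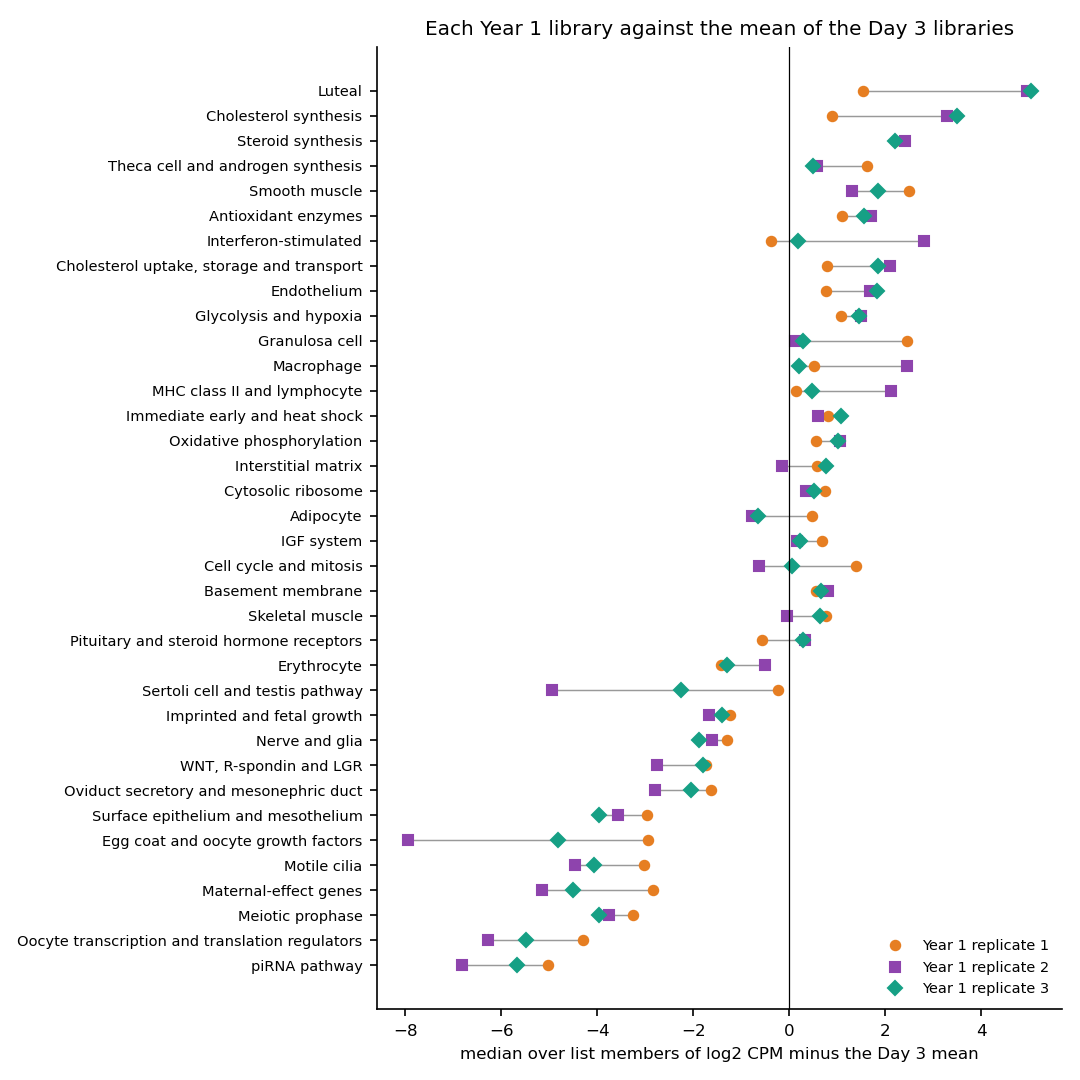
For each gene list, the median over tested members of log2 CPM minus the Day 3 mean, for each Year 1 library separately (circle, square and diamond for replicates 1, 2 and 3). The libraries lie on the same side of 0 for the germline, cilia, surface epithelium, steroid and smooth muscle lists, while replicate 1 lies away from the others for luteal, cholesterol synthesis and granulosa genes and replicate 2 for interferon, macrophage and MHC class II genes.

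Further large falls lay outside the lists. TKTL1, a transketolase-like protein (chromosome X, 124840072 to 124867313), was at 1.55, 0 and 0.26 TPM in Year 1 ovaries, against 564, 423 and 201 TPM in Day 3 ovaries (log2 change -8.69 ± 1.07, adjusted p = 0.000265). FKBP6, a chaperone partner of the piRNA pathway, was at 4.77, 0 and 1.45 TPM in Year 1, against 260.3, 367 and 543 TPM in Day 3 (log2 change -6.89 ± 1.04, adjusted p = 0.000686). BAIAP2L1, a membrane-bending adaptor, was at 1.93, 0.31 and 0.51 TPM in Year 1 libraries, against 170.0, 259 and 206 TPM in Day 3 libraries (log2 change -7.16 ± 0.67, adjusted p = 7.19e-05). ESRP1, an epithelial splicing regulator, was at 0.85, 0 and 0.26 TPM in Year 1 ovaries, against 53.8, 67.8 and 88.2 TPM in Day 3 ovaries (log2 change -6.90 ± 1.01, adjusted p = 0.000587). BRINP2 was at 0.4, 0.11 and 0.52 TPM in Year 1, against 47.3, 58.9 and 59.9 TPM in Day 3 (log2 change -6.58 ± 0.44, adjusted p = 2.07e-05). Each was below every Day 3 library in all Year 1 libraries, but the rule that picked these genes required this on the scaled counts.

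Further large rises were mostly highest in replicates 2 and 3. MRAP, which helps the ACTH receptor reach the surface, was at 15.5, 650.4 and 588 TPM in Year 1 libraries, against 0.68, 0.5 and 1.69 TPM in Day 3 libraries (log2 change 9.65 ± 2.14, adjusted p = 0.00448). TNFAIP6, which cross-links hyaluronan in the expanding cumulus, was at 13.4, 355 and 102 TPM in Year 1 ovaries, against 1.14, 0.55 and 2.16 TPM in Day 3 ovaries (log2 change 7.82 ± 1.28, adjusted p = 0.00103). FMO1, a flavin monooxygenase, was at 9.45, 867 and 802 TPM in Year 1, against 3.77, 10.7 and 5.96 TPM in Day 3 (log2 change 7.23 ± 1.56, adjusted p = 0.00396), and replicate 1 lay inside the Day 3 range in TPM. RAB27B, a GTPase of secretory vesicles, was at 0.72, 91.3 and 99.9 TPM in Year 1 libraries, against 0.72, 0.85 and 0.66 TPM in Day 3 libraries, and in replicate 1 its TPM lay within the Day 3 range (log2 change 7.35 ± 1.41, adjusted p = 0.00219). ADAMDEC1, a metalloprotease, was at 17.5, 129 and 119.9 TPM in Year 1 ovaries, against 1.53, 0.64 and 0.8 TPM in Day 3 ovaries (log2 change 7.35 ± 1.95, adjusted p = 0.0108). MGAM, which digests starch in gut, was at 0.61, 225 and 175 TPM in Year 1, against 0.6, 0.41 and 0.31 TPM in Day 3 (log2 change 9.13 ± 2.3, adjusted p = 0.00853). The ages did not overlap in TPM for MRAP, TNFAIP6, ADAMDEC1 or MGAM, though for MGAM replicate 1 exceeded Day 3 only narrowly. The rule that picked the largest rises required no overlap on the scaled counts. PCOLCE2, which enhances collagen processing, was at 5.24, 944 and 703 TPM in Year 1 libraries, against 5.18, 6.06 and 5.78 TPM in Day 3 libraries (log2 change 7.49 ± 2.25, adjusted p = 0.0195), a call that ended without Day 3 replicates 1, 2 or 3 (adjusted p = 0.0665, 0.0666 and 0.0662, in a range of 6.93e-06 to 0.0666 over its alternatives), and in TPM its replicate 1 lay inside the Day 3 range.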

How the data were processed

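Polyadenylated RNA was sequenced in 12 libraries, 3 per stage. The deposited table holds the authors' expected counts per gene, TPM, log2 fold changes and q-values, and the submitters' processing notes name Bowtie2 2.3.4.3, RSEM 1.3.1, DESeq2 1.4.5 and Sscrofa11.1, with no role or order. Another 24 per-sample columns were not used. Expected counts were rounded and fitted with edgeR 4.0.16 (R 4.3.3), with all 12 libraries, 1 term per stage, TMM scaling, filterByExpr with a minimum count of 10 and the quasi-likelihood test, adjusted by Benjamini-Hochberg to 0.05. The script was tested on simulated data. It recovered 5 of 67 genes changed by 2-fold, 36 of 67 by 4-fold and 52 of 66 by 8-fold, among 15413 genes run. Far fewer genes were changed there than were called in the data, so these shares are not the power of this comparison.

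TPM give levels only. Floors are 3 counts per library and cover counting error only. Each library came from another animal, and the replicate numbers were used as names of libraries only. All 18753 gene IDs matched the RefSeq gene table. The 36 gene lists and the named genes were chosen with earlier results of these data known, so no list gets a test. Named genes are the 12 largest rises and 12 largest falls (mean log2 CPM of at least 3, libraries apart, no provisional symbol), the 3 lowest adjusted p per list, the 5 most abundant genes per age and a fixed set. Lack of overlap was thus a condition for the largest rises and falls and is no further result for them. Other list members were named after their values were seen, to give a role or an exception, and some genes under the rule are not reported here. Of 746 list entries found, 699 were tested, and 51 further entries had no value. Alternatives were other scalings, filters and tools (limma 3.58.1 voom, DESeq2 1.42.0), a test against a 2-fold change, which is part of each printed range of adjusted p, a replicate block and each library left out. Total-count scaling was added after seeing the data.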

Additional observations from a re-analysis of the deposited data

How the results depend on the processing

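The named changes that had a value (139 under RLE scaling, 130 at a minimum count of 50 and 133 with DESeq2) kept their sign under RLE scaling, upper-quartile scaling, no count filter, a minimum count of 50, DESeq2, the fit on the 6 libraries alone and the test against a 2-fold change, though 21 named calls missed that last test. With total-count scaling 1676 genes were higher and 6217 lower, and the changes of EEF1A1, RPL36 and COL1A1 became -0.19, -0.05 and -0.12 on the log2 scale. With limma voom and quality weights 11424 genes changed and 5893 were lower, and FSHR became -2.90. Tested against a 2-fold change, 2875 genes changed, 933 higher and 1942 lower. Without Year 1 replicate 1 and Pregnancy replicate 3 together, 5685 were lower, FSHR was -3.44 and COL1A1 -0.12. Leaving out 1 library gave 5583 (without Day 3 replicate 2) to 9461 (without Year 1 replicate 1) changed genes, 2546 (without Day 3 replicate 2) to 4401 (without Pregnancy replicate 3) higher and 2996 (without Year 1 replicate 3) to 5108 (without Year 1 replicate 1) lower. Leaving out 1 library, FSHR was -3.45 (without Year 1 replicate 1) to 1.12 (without Year 1 replicate 2), COL1A1 -0.13 to 0.83 (the same libraries) and FOXL2 -2.15 (without Year 1 replicate 1) to 0.32 (without Year 1 replicate 2). The causes were not tested. With the replicate number as a block 7111 genes changed, 3403 higher and 3708 lower, and FSHR was -0.42. Deviations from the stage means correlated at -0.10, 0.01 and -0.04 between libraries of the same number, and at -0.11 to 0.12 between the others. This gave no sign of pairing by number, but with 3 libraries per stage it cannot exclude one. Changes of 2-fold were seldom recovered from simulated data. Few genes were changed there, while 48.0% of genes were called in the data, and the adjustment of p depends on that share. The simulated recovery therefore does not give the share of true changes found here. A gene that did not pass may still differ.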

Other observations

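Among the 132 genes with at least 10 counts in every Day 3 library and none in Year 1, the following were named after their values were seen. ISL1, a LIM-homeodomain factor, had 155, 209 and 223 counts in Day 3 libraries and none in Year 1, so it was at least 45.0-fold lower against a floor of 3 counts per library (edgeR adjusted p = 0.000391). The posterior homeobox gene HOXB13 had 153, 115 and 67 counts in Day 3 libraries and was at least 25.4-fold lower in Year 1 (adjusted p = 0.00249). EYA4, a transcriptional co-activator, had 104, 69 and 143 counts in Day 3 libraries and was at least 24.2-fold lower (adjusted p = 0.00414). WNT8B, a WNT ligand, had 130, 102 and 43 counts in Day 3 libraries and was at least 20.8-fold lower (adjusted p = 0.00452). The floors cover counting error only.

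The 2 genes found in every Year 1 library with at least 10 counts and in no Day 3 library both carried provisional LOC names. One of them, LOC110261743 (chromosome 7, 46323071 to 46325840, Sscrofa11.1), had 1106, 697 and 626 counts in Year 1 and none in Day 3, at least 384-fold higher (adjusted p = 0.000373). It was also at 16.3 to 26.5 TPM in the Puberty libraries and at 13.4 to 100.5 TPM in the Pregnancy libraries. PCK1, an enzyme that makes glucose and glycerol, had 0, 1970 and 597 counts in Year 1 and none in Day 3 (adjusted p = 0.0413), and the call ended without any 1 of the Day 3 libraries, Year 1 replicate 2 or Year 1 replicate 3 (adjusted p = 0.0663 to 0.0951, in a range of 4.67e-08 to 0.0951 over its alternatives).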
